A study of Mus musculus with 8 samples.

Results

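Small RNA reads from the L1 LINE copies of the rodent-specific families were described in mouse sperm. The copies were chosen by name alone: every transposon entry of the deposited table whose annotated name starts with L1Md, L1_Mus, L1_Mur, L1_Mm, L1VL or Lx. The table lists 205737 such entries, 88369 in the sense class and 117368 in the antisense class, out of 783825 transposon entries and 1078961 entries in all. They stand for 173907 distinct copies, of which 31830 are listed on both strands, and for 38 names. The study compared sperm of ethanol-treated mice (4 libraries) with sperm of control mice (4 libraries), and its title places the sampling after a period without alcohol. Strain, age, dose and genotype are not given in the sources used here. Nothing in the labels says whether each sample is a different animal, and p-values here reflect the spread among 8 libraries that may be technical. The labels name Trizol for the extraction and Qiaseq for the library kit.

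L1 elements are autonomous retrotransposons that copy themselves through an RNA intermediate. In the mouse, the L1Md_A, L1Md_T and L1Md_Gf subfamilies include young copies that can still move, L1Md_F is an older relative, and the Lx families are remnants of an old expansion in the ancestor of mice and rats. In the male germ line, L1 transcripts are held down by DNA methylation and by piRNAs, small RNAs bound by PIWI proteins. Antisense piRNAs can pair with L1 transcripts, and sense piRNAs can be cut from those transcripts or from older insertions inside piRNA-producing loci.

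Library totals were 6849448, 3481865, 6975180 and 5948251 counts for ethanol replicates 1 to 4, and 4365887 to 4921827 counts in the control libraries. Protein-coding exons made up 6.94% to 29.3% of counts in ethanol libraries, highest in ethanol replicate 2, and 5.08% to 5.81% in control libraries. All 12 listed spermatid and sperm transcripts, such as the protamine gene Prm1, were detected and tested. None passed edgeR's test and 2 were lower in ethanol by the DESeq2 Wald test. All 12 had a log2 fold change below 0, with a median of -0.54, and -0.38 without ethanol replicate 2. Their summed level was 238 to 664 CPM in ethanol and 619 to 778 CPM in control libraries. Exon counts rose widely in ethanol: of all 6545 tested exon features, 1560 were higher and 10 lower (edgeR), with a median log2 fold change of 0.88. Of 18 epididymal epithelium transcripts, 8 were tested and 7 were higher in ethanol, with a median log2 fold change of 2.51. The 7 included the keratins Krt8, Krt18 and Krt19 and the secreted protein Crisp1. The summed level of the epididymal transcripts was 901 to 11600 CPM in ethanol and 416 to 691 CPM in control libraries. In the edgeR fit, 6 of these transcripts still passed with ethanol replicate 2 left out, and none passed with any single control library left out. CPM is counts scaled to a common library total with edgeR's TMM factors. Of 12 blood and immune transcripts 5 were tested and 2 were lower in ethanol, the alpha globin genes Hba-a1 and Hba-a2. The part of these transcripts in the L1 values was not tested, and in bulk samples fewer cells of a type and less RNA per cell cannot be told apart.

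Rodent L1 copies of the sense class took a smaller share of all small RNA counts in every ethanol library than in any control library. The sense share was 1.16%, 1.09%, 1.35% and 1.22% in ethanol replicates 1 to 4, against 2.15%, 1.73%, 1.78% and 1.62% in control replicates 1 to 4. The groups did not overlap, and the means were 1.21% ± 0.114 in ethanol and 1.82% ± 0.233 in control (SD, n = 4 each). The antisense share was 1.08%, 0.469%, 0.925% and 0.521% in ethanol libraries, against 1.18%, 0.782%, 0.871% and 0.916% in control libraries. Here the groups overlapped: ethanol replicates 1 and 3 lay within the control range, and ethanol replicates 2 and 4 lay under it. The means were 0.749% ± 0.302 in ethanol and 0.936% ± 0.170 in control (SD, n = 4 each). Counting error is small beside this spread, since the widest 95% Wilson interval of a library's L1 share reached 0.0165 percentage points to either side. Such intervals cover counting error only.

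**Figure D1:**
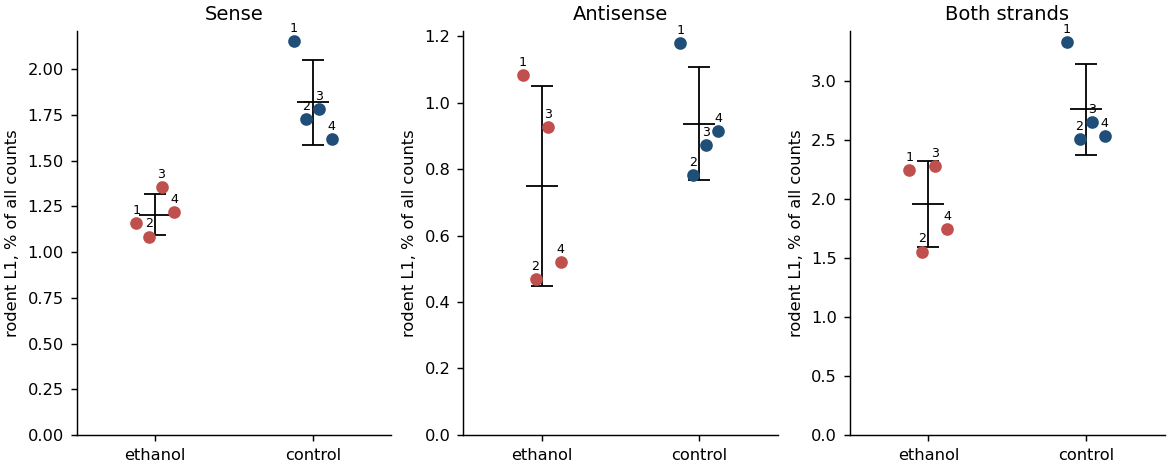
Share of each library's counts that came from rodent L1 copies, in percent, for the sense strand, the antisense strand and both. Points are libraries with their replicate number, bars are the mean and SD of 4; the sense panel shows ethanol libraries at 1.09% to 1.35% and control libraries at 1.62% to 2.15%, while the antisense panel overlaps.

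As a part of the transposon counts alone, rodent L1 was also lower in ethanol. Both strands together held 22.1%, 22.8%, 20.4% and 24.5% of transposon counts in ethanol libraries, against 28.8%, 29.3%, 27.6% and 25.3% in control libraries. The groups did not overlap. The sense strand alone held 14.2% ± 2.83 of transposon counts in ethanol and 18.4% ± 1.65 in control (SD, n = 4 each), and ethanol replicate 4 at 17.2% lay inside the control range. A share of all counts moves with the other classes too. Of the same total, miRNAs made up 8.06% ± 1.86 in ethanol and 19.5% ± 4.87 in control libraries. Protein-coding exons went the other way, at 13.7% ± 10.5 in ethanol and 5.495% ± 0.305 in control libraries. With tRNA and rRNA left out of the total, the sense share was 1.96% ± 0.451 in ethanol and 2.71% ± 0.300 in control, and ethanol replicate 4 at 2.61% lay inside the control range.

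The sense signal came mostly from a single annotated copy. L1Md_F2_copy29260, a copy of an F-type L1Md subfamily, held 434236 of the 617153 sense counts. It made up 58.3%, 79.2%, 69.0% and 75.4% of the sense counts in ethanol libraries, against 68.6%, 73.2%, 73.1% and 72.1% in control libraries. Its counts lay almost all on the sense strand, and the antisense entry of the same copy had 53 counts in ethanol and 100 in control libraries. As a share of all counts it stood at 0.676%, 0.859%, 0.935% and 0.920% in ethanol libraries, against 1.48%, 1.27%, 1.30% and 1.16% in control libraries. On that total, every ethanol library was under every control library. On 2 other totals the groups overlapped for this copy, with ethanol replicate 4 above control replicate 4. The sense strand held 17.2% and 16.2% of transposon counts in these libraries, and 2.61% and 2.39% of counts without tRNA and rRNA. Fitted as a single entry, it was lower in ethanol by a log2 fold change of -0.83 ± 0.32 (SE), with an adjusted p of 0.115 in edgeR's quasi-likelihood test, which is not past 0.05. Its position and length are not in the table, and the placing of multiply aligned reads is unknown. These counts may therefore be shared with near-identical sequence elsewhere.

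With the largest copy of each name and strand left out, the sense share was 0.281% ± 0.0913 in ethanol and 0.442% ± 0.103 in control (SD, n = 4 each), and the groups overlapped. The rest of the sense signal was spread thinly. Without L1Md_F2_copy29260, 6508 copies were needed to reach 50% of the sense counts, while 275 copies reached it on the antisense strand. Counts over the entries were sparse: 20.3% of sense and 19.7% of antisense entries were at 0 in all 8 libraries, and 48.8% and 47.5% had a single count in total. Only 1033 sense and 1146 antisense entries reached 10 counts, and 10 sense and 35 antisense entries reached 1000.

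The share of entries without a count varied by name. Among L1Md names, 28.8% to 44.8% of sense entries and 24.3% to 44.8% of antisense entries were at 0, with the highest values on L1Md_Gf, a young subfamily with 87 sense and 192 antisense entries. L1Md_T stood at 37.2% of sense and 34.3% of antisense entries, L1Md_A at 36.0% and 32.9%, and L1Md_F3 at 32.5% and 35.1%. Among the Lx names the range was 4.46% to 26.0% for sense entries and 4.63% to 29.2% for antisense entries. The lowest values were on Lx8, at 4.46% of 6052 sense and 4.63% of 6828 antisense entries. Copy length and the rule by which the table lists a copy are not known, so levels were not compared between names per length.

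Of the 38 names, L1Md_F2 was the most abundant on the sense strand, at 8762 ± 2763 CPM in ethanol and 15680 ± 1518 CPM in control. L1_Mus3 followed at 295 ± 133 CPM in ethanol and 523 ± 98.7 CPM in control, and Lx8 at 224 ± 95.1 CPM in ethanol and 392 ± 77.5 CPM in control (SD, n = 4 each). The antisense strand had no single dominant name. Lx9 led it at 1096 ± 644 CPM in ethanol and 1291 ± 277 CPM in control. L1_Mus3 had 802 ± 472 CPM in ethanol and 1130 ± 292 CPM in control, and Lx8 had 756 ± 443 CPM in ethanol and 973 ± 203 CPM in control. Of the subfamilies with young copies, L1Md_A had 33.8 ± 6.73 CPM sense in ethanol and 50.2 ± 8.51 in control, L1Md_T had 55.5 ± 26.6 CPM sense in ethanol and 84.6 ± 16.4 in control, and L1Md_Gf had 3.0 ± 2.48 CPM sense in ethanol and 4.75 ± 1.14 in control. By family, Lx names held 59.3% ± 2.54 of the antisense counts in ethanol and 57.7% ± 0.886 in control, and L1Md names held 11.1% ± 3.44 in ethanol and 10.8% ± 0.580 in control. On the sense strand, L1Md names held 73.6% ± 8.28 in ethanol and 74.8% ± 1.93 in control, nearly all of it L1Md_F2_copy29260.

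The largest copy held over 50% of a name's counts on the sense strand for 5 names (L1Md_F2, L1_Mm, Lx10, Lx5b and Lx8b) and on the antisense strand for 3 (L1Md_F, L1_Mus3 and Lx5c). L1Md_F antisense, for example, was 75.5% a single copy, L1Md_F_copy776, and Lx10 sense was 70.2% Lx10_copy4567. These large copies were nearly all on a single strand. Of the 45 entries with at least 1000 counts, 39 had under 1% of the copy's counts on the opposite strand. Lx9_copy32460 had 17643 antisense and 2 sense counts, and Lx5c_copy6531 had 18347 antisense and 36 sense counts. Of the 45 entries, 15 had another large entry of the same name within 5 copy numbers, such as the antisense entries L1_Mus2_copy9715, L1_Mus2_copy9718 and L1_Mus2_copy9720. Lx5c_copy4954 was large on the sense strand with 1971 counts and its neighbour in number, Lx5c_copy4955, on the antisense strand with 7045.

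Most of the large copies other than L1Md_F2_copy29260 varied together across libraries. Lx9_copy32460 antisense had 550, 190, 687 and 266 CPM in ethanol replicates 1 to 4, against 486, 338, 421 and 502 CPM in control libraries. Lx10_copy4567 sense had 219, 77.3, 279 and 141 CPM in ethanol libraries, against 238, 171, 192 and 254 CPM in control libraries. In both of these, ethanol replicates 2 and 4 were under all control libraries and ethanol replicate 3 was above all of them. Across the 35 large antisense entries, 30 were lowest in ethanol replicate 2 and 28 were highest in ethanol replicate 3. Of the 9 large sense entries without L1Md_F2_copy29260, 8 were lowest in ethanol replicate 2 and 6 were highest in ethanol replicate 3. Exceptions included L1Md_F3_copy6920 antisense, highest in ethanol replicate 2. Lx9_copy20500 antisense and L1_Mus3_copy42582 sense were lowest in ethanol replicate 3. The same counts were not made over all features. The annotated piRNA clusters of the table, each counted by its largest transcript, showed the same order of ethanol libraries as Lx9_copy32460. They held 17.2%, 8.001%, 23.1% and 9.51% of counts in ethanol replicates 1 to 4, against 15.6%, 9.75%, 13.4% and 16.7% in control replicates 1 to 4. Whether the copies lie in those clusters was not tested, since the table gives no positions.

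**Figure D2:**
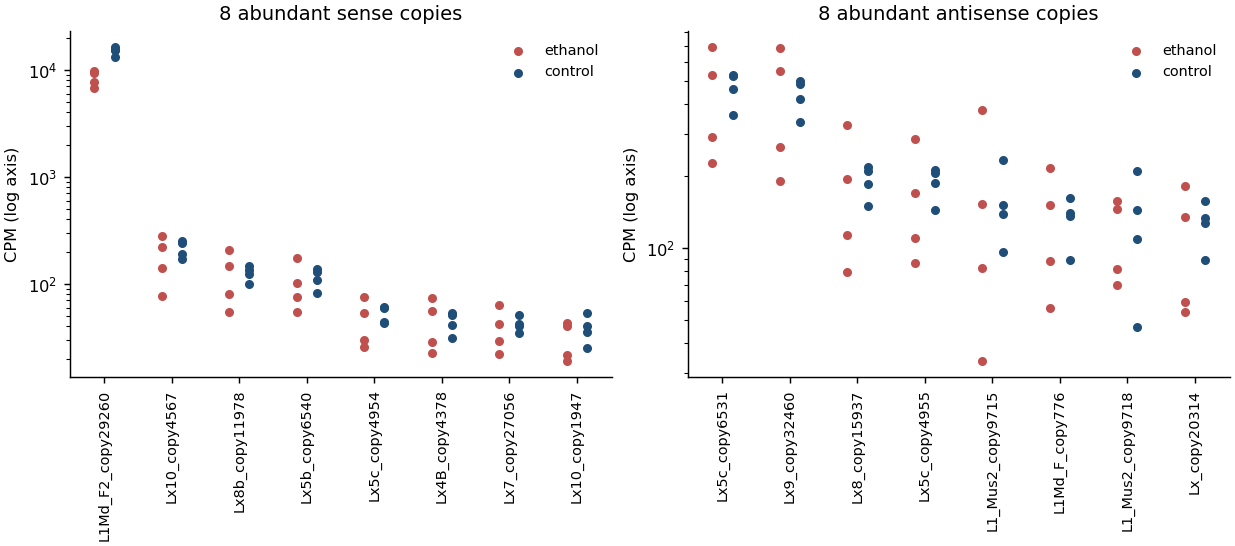
CPM of 8 abundant sense and 8 abundant antisense rodent L1 copies on log axes, with a point for each of 4 ethanol and 4 control libraries. L1Md_F2_copy29260 is the sense copy at 6745 to 9753 CPM in ethanol and 13280 to 16380 CPM in control with no overlap, while the ethanol points of the other copies shown overlap the control points.

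The copies were also summed by their total count over all 8 libraries. These size classes were drawn up after the values had been seen and are described without a test. Sense copies with 1 to 9 counts in total summed to 3185, 907, 2834 and 1931 CPM in ethanol libraries, against 5812, 3818, 3747 and 3801 CPM in control libraries. On this TMM scale every ethanol library was under every control library. As a share of all counts, without TMM factors, the sense copies other than the largest of each name overlapped. Ethanol replicate 1 stood at 0.396% and control replicate 4 at 0.357%. The 9 large sense copies without L1Md_F2_copy29260 summed to 734, 264, 1266 and 453 CPM in ethanol libraries, against 866, 558, 678 and 1103 CPM in control libraries, and overlapped. On the log2 scale, the ratio of the ethanol to the control mean was -0.96 for the copies with 1 to 9 counts and -0.24 for those 9 large copies. Without ethanol replicate 2 these became -0.70 and 0.03.

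On the antisense strand, copies with 1 to 9 counts summed to 3140 ± 1768 CPM in ethanol and 5784 ± 1463 CPM in control, and the 35 copies with at least 1000 counts summed to 3839 ± 2529 CPM in ethanol and 4249 ± 1204 CPM in control (SD, n = 4 each). The log2 ratios of the means were -0.88 and -0.15, and -0.63 and 0.11 without ethanol replicate 2. Both classes overlapped between the groups. Among the low-count antisense copies, ethanol replicate 1 at 5513 CPM lay within the control range and the other ethanol libraries lay at 1358 to 3295 CPM, under it. Annotated introns summed to 74670 ± 16920 CPM in ethanol and 91610 ± 5645 CPM in control.

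**Figure D3:**
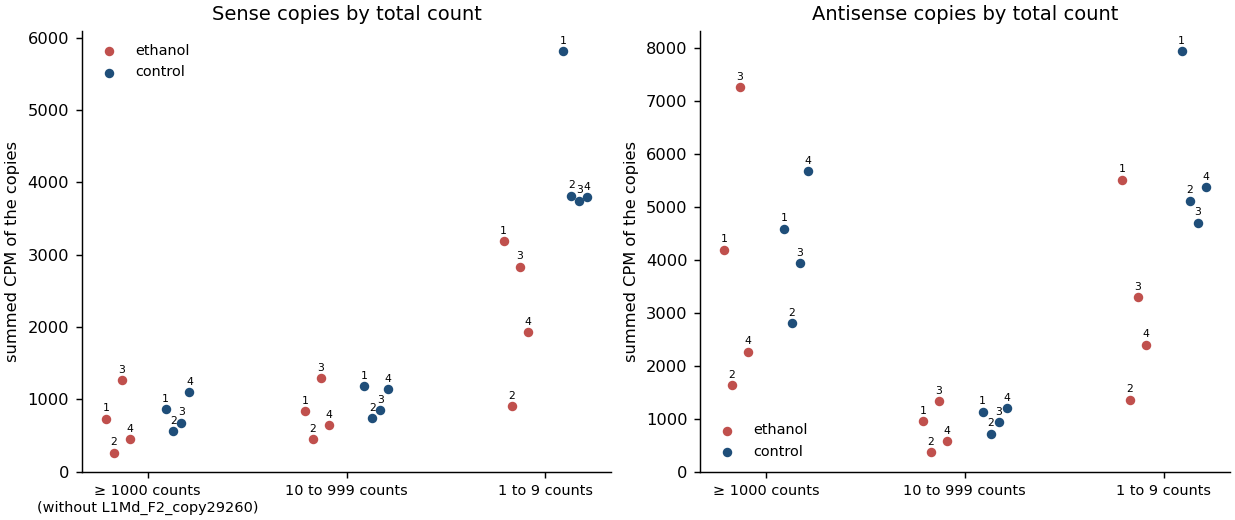
Summed CPM of rodent L1 copies grouped by their total count over all 8 libraries, for 4 ethanol and 4 control libraries marked by replicate number, without L1Md_F2_copy29260. On the TMM scale, sense copies with 1 to 9 counts sit at 907 to 3185 CPM in ethanol and at 3747 to 5812 CPM in control. Large copies overlap, with ethanol replicate 3 at the top.

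Tested by name over the whole table with edgeR's quasi-likelihood test, no rodent L1 name passed an adjusted p of 0.05 on either strand, while 13.6% of all 13515 tested features did. All 76 combinations of name and strand had enough counts to be tested. At an unadjusted p under 0.05 there were 5 sense and 0 antisense names, against 33.0% of all features. The DESeq2 Wald test called 6 sense names, all lower in ethanol, beside 3144 of all 13515 features. The limma-voom fit called 0 sense names and only 8 of all features. Both called 0 on the antisense strand.

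The direction of the estimates was nearly uniform. Of the 76, 75 had a log2 fold change below 0, against 50.4% of all features. Most other transposons shared this direction: 94.7% of all tested transposon features, 98.3% of sense and 98.4% of antisense names of other L1 elements and all SINE names were below 0. The medians were -0.75 for sense and -0.71 for antisense names. The median over all tested features was -0.01 and over all transposon features -0.50. On the TMM scale, every ethanol library was below every control library for 16 sense and 0 antisense names, against 6.93% of all features. This count depends on the scaling and was not made on library totals. Several of the 16 names overlap there, such as L1Md_A, Lx8 and Lx9. For L1Md_A sense, ethanol replicate 1 had 283 of 6849448 counts, a larger share than the 159 of 4921827 in control replicate 4. The names share libraries and scaling, so they are not separate observations of a shift. Scaled by library totals, the medians were -0.54 and -0.50 while the median of all features moved to 0.24. With transposon features alone in the fit, the medians were -0.18 and -0.18, and 30 of 38 sense and 29 of 38 antisense names were below 0. With ethanol replicate 2 left out they were -0.56 and -0.53, and 38 sense and 37 antisense names were below 0.

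The sense names with the smallest p were L1VL1, Lx2B, Lx2A, Lx2 and L1Md_F. L1VL1 had 12.4, 3.29, 13.6 and 9.81 CPM in ethanol libraries, against 26.9, 16.4, 19.3 and 19.6 CPM in control libraries. The groups did not overlap, with ethanol replicate 2 the lowest and control replicate 1 the highest. The log2 fold change was -1.07 ± 0.42 (SE), with an adjusted p of 0.0924 (edgeR).

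Lx2B had 64.1, 19.3, 51.2 and 41.9 CPM in ethanol libraries, against 128, 82.2, 83.0 and 83.8 CPM in control libraries. Lx2A had 16.8, 3.70, 16.6 and 9.13 CPM in ethanol libraries, against 33.3, 22.5, 21.0 and 23.4 CPM in control libraries. Lx2 had 234, 66.6, 232 and 147 CPM in ethanol libraries, against 523, 326, 322 and 334 CPM in control libraries. On the TMM scale, every ethanol library was below every control library in all of these names, and control replicate 1 stood highest. For Lx2B this depends on the scaling. Ethanol replicate 1 had 446 of 6849448 counts, a larger share than the 308 of 4921827 in control replicate 4. The log2 fold changes of Lx2B, Lx2A and Lx2 were -1.09 ± 0.43, -1.11 ± 0.44 and -1.15 ± 0.47 (SE), with adjusted p of 0.0942, 0.0957 and 0.107 in edgeR's test. L1Md_F sense, an old subfamily name at 19.8 ± 9.02 CPM in ethanol and 39.6 ± 14.97 CPM in control, had a log2 fold change of -0.998 ± 0.43 and an adjusted p of 0.121. These 4 names and L1VL1, with L1Md_F2 as the sixth, were the sense names that DESeq2 called.

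**Figure D4:**
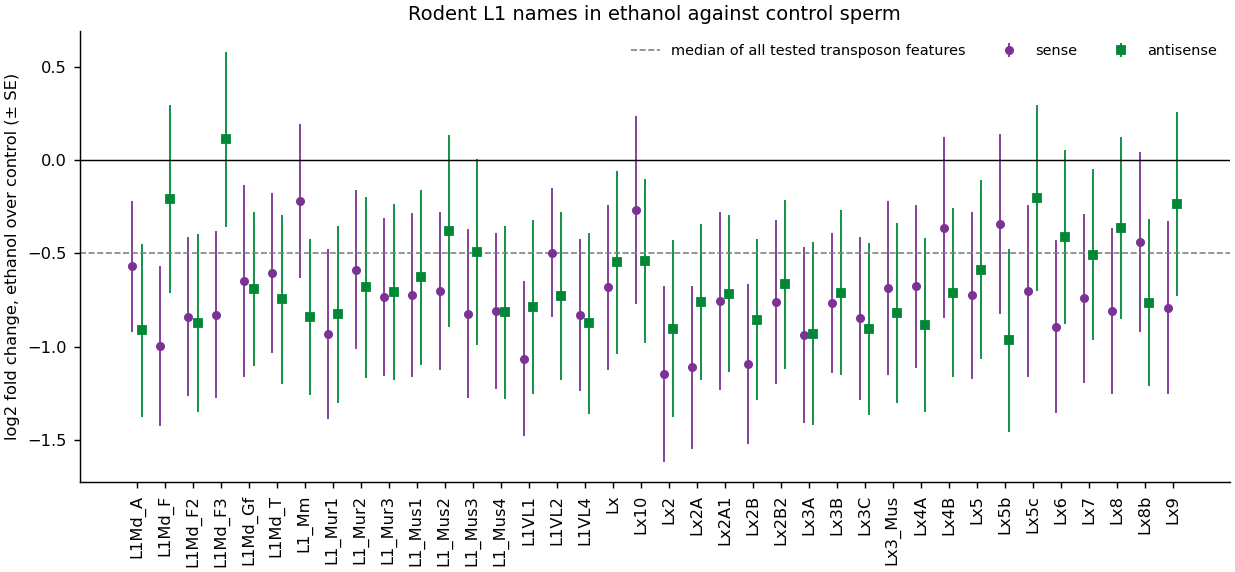
Log2 fold change of ethanol over control (edgeR, ± SE) for the sense and antisense counts of each of the 38 rodent L1 names, with the median of all tested transposon features as a dashed line at -0.50. Sense estimates run from -1.15 to -0.22 and antisense estimates from -0.97 to 0.11, with only L1Md_F3 antisense above 0.

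On the antisense strand, 3 names with estimates below 0 lay closest to it. Lx5c was at -0.20 ± 0.50, L1Md_F at -0.21 ± 0.51 and Lx9 at -0.24 ± 0.49 (SE). With the largest copy of each left out, L1Md_F antisense was at -0.86, Lx5c at -0.40 and Lx9 at -0.39. A large copy did not always go with an estimate near 0, since L1_Mus4 antisense, 44.8% of it a single copy, was at -0.82. The single estimate above 0 was L1Md_F3 antisense, at 0.11 ± 0.47. It had 136, 257, 82.0 and 67.0 CPM in ethanol libraries, against 155, 111, 96.7 and 139 CPM in control libraries, and only ethanol replicate 2 was above the controls. Its largest copy, L1Md_F3_copy6920, had 33.8, 291, 22.1 and 29.6 CPM in ethanol libraries, against 17.2, 27.3, 22.5 and 29.7 CPM in control libraries. CPM of a copy and of a name are scaled by separate fits and cannot be set against each other. By counts, this copy was 1116 of the name's 1247 antisense counts in ethanol replicate 2. Without that copy the name was at -0.86, and without ethanol replicate 2 it was at -0.46. The lowest antisense estimate was Lx5b at -0.97 ± 0.49, with an adjusted p of 0.180 (edgeR).

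The balance of strands within a library does not depend on scaling. Summed over all rodent L1 copies, the ratio of antisense to sense counts was 0.934, 0.432, 0.683 and 0.427 in ethanol libraries, against 0.547, 0.452, 0.488 and 0.567 in control libraries. Ethanol replicates 1 and 3 were above the controls and ethanol replicates 2 and 4 under them. L1Md_F2_copy29260 set this ratio below 1. Without its sense counts the ratio was 2.06 ± 0.232 in ethanol and 1.82 ± 0.1496 in control (SD, n = 4 each), and the groups overlapped. For L1 names outside the rodent families the ratio was 2.71 ± 0.238 in ethanol and 2.51 ± 0.109 in control, and for all other transposon names 1.14 ± 0.285 in ethanol and 1.18 ± 0.0993 in control.

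By name, 27 of 38 had more antisense than sense counts on average in ethanol and 27 in control, and 31 in each with the largest copies left out. The most antisense names in control libraries were L1Md_F, at 8.03 ± 1.94 in ethanol and 5.23 ± 1.77 in control, L1_Mus2, at 4.95 ± 1.92 in ethanol and 4.30 ± 0.851 in control, and Lx9, at 5.90 ± 1.21 in ethanol and 4.19 ± 0.790 in control. Without its largest copy the ratio of L1Md_F was 1.64 ± 0.416 in ethanol and 1.60 ± 0.333 in control. The most sense names were L1Md_F2, at 0.0430 ± 0.0303 in ethanol and 0.0410 ± 0.00612 in control, and Lx10, at 0.260 ± 0.0649 in ethanol and 0.289 ± 0.0691 in control. L1Md_F2 without its largest copies was at 1.42 ± 0.361 in ethanol and 1.51 ± 0.116 in control. A second group of sense-biased names was Lx2A1 at 0.529 ± 0.118 in ethanol and 0.478 ± 0.0641 in control, Lx2A at 0.749 ± 0.205 in ethanol and 0.546 ± 0.0543 in control, and Lx2 at 0.680 ± 0.123 in ethanol and 0.589 ± 0.0361 in control. For Lx2 no large copy was behind this, since its ratio without the largest copies was 0.598 ± 0.137 in ethanol and 0.537 ± 0.0298 in control.

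**Figure D5:**
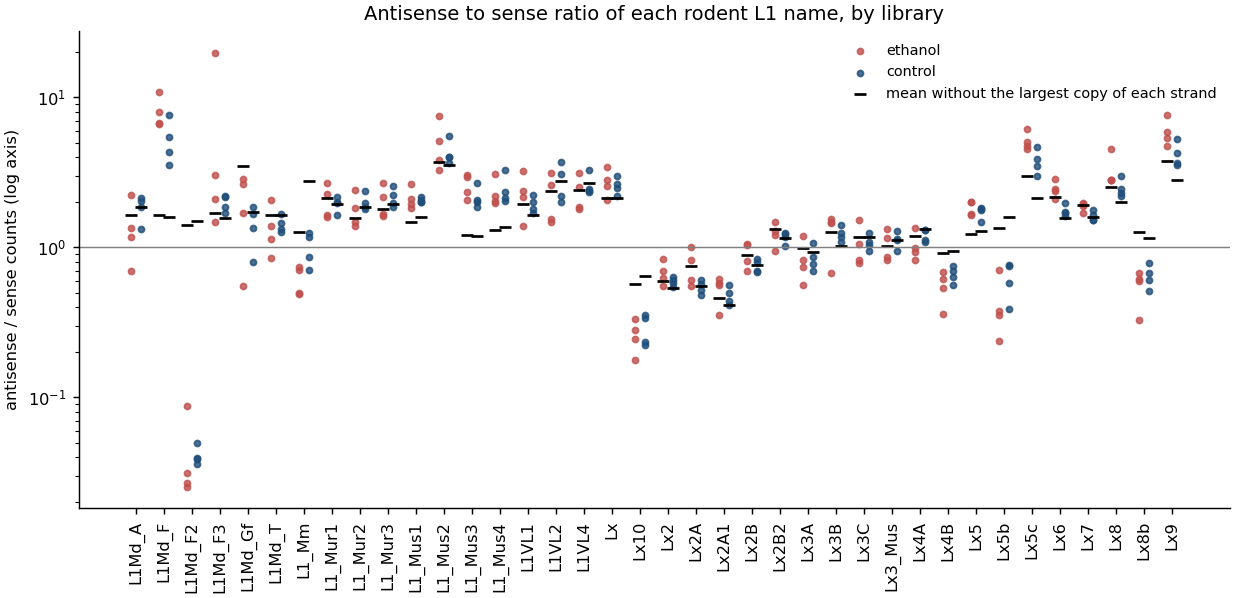
Antisense to sense count ratio of each rodent L1 name on a log axis, with a point for each of 4 ethanol and 4 control libraries and black ticks for the group mean without the largest copy of each strand; the grey line marks equal strands. L1Md_F2 lies far below 1 and returns to 1.42 in ethanol and 1.51 in control without its largest copies, and most Lx2, Lx2A and Lx2A1 points stay below 1.

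In a test of the strand by group interaction over 506 transposon names, no rodent L1 name passed an adjusted p of 0.05 (edgeR), against 0.395% of all names. A limma test on the log2 ratio also called 0. At an unadjusted p under 0.05 there were 6 of 38, against 11.1% of all names, and the limma test gave 5. Of the estimates 21 were above 0 and 17 below, with a median of 0.04 for rodent L1 names and 0.04 for all names. This balance moved with the libraries: without ethanol replicate 1 the median was -0.11 with 23 below 0, with ethanol replicates 1 and 2 left out it was -0.16 with 25 below, and with ethanol replicates 3 and 4 left out it was 0.21 with 10 below. Lx6 had ratios of 2.11, 2.40, 2.86 and 2.47 in ethanol libraries, against 1.71, 1.62, 1.72 and 1.97 in control libraries. It was the only one of the 38 names whose groups did not overlap with all copies counted, and the groups also did not overlap without its largest copies. Its log2 ratio changed by 0.48 ± 0.15 (SE), with an adjusted p of 0.370 (edgeR). Lx9 and Lx5c followed at 0.49 ± 0.16 and 0.46 ± 0.15, each with an adjusted p of 0.370.

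At the level of single copies, 159 entries had enough counts to be tested, 73 sense and 86 antisense, holding 77.3% and 47.8% of the counts of their strand. Of these, 2 passed an adjusted p of 0.05 (edgeR), against 3.53% of all 11170 tested entries of the table, and 9 had an unadjusted p under 0.05, against 27.8% of all. Of the 159, 118 were below 0 and the median log2 fold change was -0.17, with -0.07 over all tested entries. Scaled by library totals, 69 were below 0 and the median was 0.03.

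Lx8_copy40502 antisense had 9.62, 9.37, 7.63 and 7.23 CPM in ethanol libraries, against 23.3, 17.1, 34.7 and 25.3 CPM in control libraries. It was lower in every ethanol library than in any control library, with a log2 fold change of -1.57 ± 0.38 (SE) and an adjusted p of 0.0495 (edgeR). Lx3B_copy5594 sense had 3.50, 27.6, 2.24 and 4.64 CPM in ethanol libraries, against 0.980, 0.827, 0.777 and 1.39 CPM in control libraries. It was higher in every ethanol library and highest in ethanol replicate 2, at 106 counts. The summed epididymal transcripts, mostly Crisp1, were also highest there, and so was each of the 8 tested ones. Of the untested ones, Lcn8, Lcn9 and Cst11 were lowest there among ethanol libraries, at 1, 1 and 0 counts. A link was not tested. The log2 fold change of Lx3B_copy5594 was 3.18 ± 0.80, with an adjusted p of 0.0495 (edgeR). Both calls were lost with DESeq2 size factors, at an adjusted p of 0.0630, and when any single control library was left out.

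Among protein-coding exons, the genes of L1 control were measured at low counts. Of 25 listed piRNA pathway genes 10 were tested and none passed, 0 of them also at an unadjusted p under 0.05, with a median log2 fold change of 0.06; the DESeq2 Wald test also called 0. Piwil2, a PIWI protein that binds piRNAs before and during meiosis, had 14.5 ± 8.73 CPM in ethanol and 18.03 ± 6.58 CPM in control (SD, n = 4 each). Of 26 listed genes that silence or restrict L1, such as DNA methyltransferases and the corepressor Trim28, 12 were tested and 1 was higher in ethanol, 4 by the DESeq2 Wald test and 0 in edgeR without ethanol replicate 2. The gene past edgeR's threshold was Atrx, a chromatin remodeller that helps keep repeats silent, at 24.3 ± 18.6 CPM in ethanol and 7.69 ± 1.65 CPM in control. Its log2 fold change was 1.65 ± 0.48 with an adjusted p of 0.0375 (edgeR), and 0.92 with an adjusted p of 0.0572 without ethanol replicate 2. In edgeR its adjusted p was also 0.0547 with DESeq2 size factors, 0.0550 without ethanol replicate 4 and 0.0826 to 0.122 without any single control library. With limma-voom it was 0.0690. Other settings kept the call, such as library totals, the DESeq2 Wald test and leaving out ethanol replicate 1 or 3. The median of these 12 genes was 1.12, beside 0.88 over all 6545 tested exon features, of which 1560 were higher and 10 lower in ethanol.

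Rodent L1 names stood lower than the other L1 names in this table, without a test of that difference. The median log2 fold change was -0.75 for rodent sense names and -0.49 for the other 57 sense L1 names, and -0.71 for rodent antisense names and -0.53 for the other 64 antisense L1 names. SINE names were at -0.35 sense and -0.34 antisense, LTR names at -0.58 sense and -0.49 antisense, and piRNA clusters at -0.08.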

How the data were processed

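The values are raw counts in 1 table, as the authors deposited it, with 1 column for each of 8 sperm small RNA libraries. The aligner, counting rule, genome build and any use of molecular identifiers are not given in the sources used here. Qiaseq kits can add such identifiers, so counts may be reads or molecules.

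Counts with the same name and class were summed into 45090 features, and edgeR 4.0.16 in R 4.3.3 (TMM, filterByExpr with a minimum count of 10, robust quasi-likelihood fit, group as the only term, Benjamini-Hochberg over all 13515 tested features, threshold 0.05) was run on the whole table. Each of 172 piRNA clusters was not summed but represented by its listed transcript with the most counts. A second fit used unsummed entries. Strand ratios were tested as a strand by group interaction over transposon names with at least 10 counts on each strand in at least 4 libraries. CPM of single copies use the scaling of the unsummed fit and CPM of names, size classes and genes that of the summed fit. The SE of a log2 fold change is its size divided by the square root of F. Sums over the members have no test. Alternatives were DESeq2 1.42.0, limma 3.58.1 and the settings of the closing section. On simulated counts of 14338 features, 10.0% of 2-fold and 78.0% of 4-fold changes were recovered, with 2 false calls among 90. The simulation gave every feature the same spread between libraries and raised only 200. The real fit called 1841 features, so these rates need not hold for it.

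Within groups, pairs of libraries differed by a chi-square of 7.40 to 185 per degree of freedom, so none was a duplicate. Same-numbered libraries of the groups had deviation correlations of -0.13 to 0.34. Other pairs were not computed, so these values cannot decide whether the numbers pair the samples. The members and gene lists were chosen with earlier results of these data known. Names in the text follow a rule: the 8 with the highest CPM per strand, those with the smallest p, the extreme strand ratios, names whose largest copy holds over 50%, and the copies with the highest CPM or smallest p. Other named copies and genes, L1Md_A, L1Md_T, L1Md_Gf and L1Md_F sense were chosen after their values were seen. One abundant copy is not reported here. No sequence or position is printed, since the table gives none.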

Additional observations from a re-analysis of the deposited data

Results flagged for a closer look

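Of 108 groups of 4 libraries examined, 6 held a library whose distance from the next, as a share of the group's range, passed Dixon's 95% critical value for 4 samples. Chance alone marks about 5% of groups. In the ethanol group, L1Md_F2 had an antisense to sense ratio of 0.0883 in ethanol replicate 1, against 0.0255 to 0.0314 in the other ethanol libraries. Also in that group, Lx3B_copy5594 sense had 27.6 CPM in ethanol replicate 2, against 2.24 to 4.64 CPM in the others. The remaining 4 were all control replicate 1. It had 523 CPM of Lx2 sense, against 322 to 334 CPM in the other control libraries, and 128 CPM of Lx2B sense, against 82.2 to 83.8 CPM. It also had 433 CPM of Lx9 sense, against 266 to 288 CPM, and 175 CPM of Lx5b antisense, against 91.7 to 100.4 CPM.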

How the results depend on the processing

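The count of sense names called, 0 with edgeR, was 6 with the DESeq2 Wald test, 1 (L1Md_Gf) with ethanol replicates 3 and 4 left out and 0 to 4 with each library left out. Only without ethanol replicate 3 did it leave 0, with L1Md_F, L1VL1, Lx2 and Lx2A called. That fit called 3575 of all 14825 features tested, and the DESeq2 Wald test called 3144 of 13515. The antisense count was 0 in every alternative run. The count of copies called, 2 at first, was 0 with DESeq2 size factors and 0 to 9 with each library left out: 9 without ethanol replicate 3, 4 without ethanol replicate 2, 1 without ethanol replicate 1 and 0 without any other library. The replicate block gave 4 sense names (L1Md_F, L1VL1, Lx2A and Lx2B) and 5 copies, and called 3298 of all 13515 features. Whether the replicate numbers pair the samples is not known. The sense share, a log2 ratio of means of -0.60, was -0.38 with transposon counts as the total. The groups overlapped there and with tRNA and rRNA left out of the total. The sample codes of ethanol replicates 1 and 2 are written in another style than those of the other libraries. L1Md_F2 sense was at -0.55 without these and -1.39 with ethanol replicates 3 and 4 left out. The ratio of the summed strands, 0.27 on the log2 scale, was 0.001 without ethanol replicate 1. Over the whole table, calls fell to 3 to 10 with any single control library left out, against 1841.

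For 51 named items with 811 alternative values, 729 kept their direction and their side of the threshold. Where single estimates changed sign, none was past the threshold. With transposon features alone, log2 fold changes were 0.21 for Lx10, 0.055 for Lx8b, 0.29 for L1_Mm and 0.18 for Lx5b sense, and 0.26 for Lx9, 0.14 for Lx8, 0.28 for Lx5c, 0.078 for L1_Mus2, 0.031 for Lx7 and 0.25 for L1Md_F antisense. With ethanol replicates 1 and 2 left out they were 0.022 for Lx5c, 0.024 for L1Md_F and -0.78 for L1Md_F3 antisense, and for strand ratios -0.04 for Lx2A1 and -0.001 for Lx2. With ethanol replicates 3 and 4 left out the ratio changes were 0.23 for L1Md_F2 and 0.11 for Lx10. L1Md_F3 antisense was -0.065 with limma-voom, -0.077 with the replicate block and -0.86 without largest copies. With library totals, Lx8b_copy11978 was at 0.15, Lx5b_copy6540 at 0.03, Lx5c_copy6531 at 0.10, Lx9_copy32460 at 0.17, Lx8_copy15937 at 0.11 and Lx5c_copy4955 at 0.018, and with DESeq2 size factors Lx9_copy32460 was at 0.008. With each library left out, values ran from -0.46 to 0.28 for L1Md_F3 and from -0.74 to 0.011 for L1Md_F antisense, and for ratios from -0.082 to 0.33 for L1_Mus2, -0.55 to 0.04 for L1Md_F2 and -0.29 to 0.00 for Lx10. For copies they ran from -0.65 to 0.051 for Lx10_copy4567, -0.54 to 0.23 for Lx8b_copy11978, -0.68 to 0.09 for Lx5b_copy6540, -0.54 to 0.15 for Lx5c_copy6531, -0.48 to 0.24 for Lx9_copy32460, -0.67 to 0.18 for Lx8_copy15937 and -0.72 to 0.06 for Lx5c_copy4955. The causes were not tested. A count of 0 over all libraries allows up to 0.0722 CPM, and most entries lie near that depth.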
